A study of Mus musculus with 9 samples.

Results

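The genes described here encode the cytoplasmic intermediate filaments of a mammary epithelial cell line. They are the keratins, vimentin (*Vim*), desmin (*Des*) and nestin (*Nes*). The members are the gene symbols that consist of Krt and a number, plus *Vim*, *Des* and *Nes*, which gave 53 members (50 keratins and 3 others) of 52459 symbols in the files. RNA was sequenced from 9 libraries of untreated NMuMG cells, an immortalised line from normal mouse mammary gland. All cells were stably transfected with a pBICEP-based vector and selected as pools with G418. The 3 mock libraries carry the empty vector. The 3 EPR libraries overexpress EPR, a long noncoding RNA annotated as BC030870, and the 3 EPRSTOPE libraries overexpress EPR with a stop codon at the start of its small open reading frame, so that the RNA is made without its peptide. The libraries are numbered 203 to 205 for mock, 206 to 208 for EPR and 209 to 211 for EPRSTOPE. EPR RNA itself was counted 0, 0 and 2 times in the mock libraries, 271, 214 and 256 times in the EPR libraries and 28, 39 and 33 times in the EPRSTOPE libraries. The 2 overexpressing conditions thus differ in the amount of EPR RNA as well as in the peptide, and these cannot be told apart here. Whether each library of a condition is a pool of its own is not stated in the labels, so p-values measure only the spread between these libraries.

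Keratins form filaments only as pairs of an acidic type I and a basic type II chain. Simple epithelia, such as the luminal layer of the mammary gland, are known for the pair of KRT8 and KRT18 together with KRT7 and KRT19. Basal and stratified epithelia are known for KRT5 and KRT14, and stressed or wounded epidermis for KRT6 and KRT16. Vimentin, a type III protein, is typical of mesenchymal cells and of many cell lines in culture. Nestin, a type VI protein of progenitor cells, assembles with vimentin, whereas desmin is the filament protein of muscle.

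The libraries held 5972198 to 11876142 estimated counts, and levels are given as counts per 1e+06 counts of a library (CPM) after TMM normalisation. A count of 3 corresponds to 0.244 to 0.508 CPM. Rank correlations between libraries ran from 0.978 to 0.989 within a condition and reached at most 0.958 between conditions. Of the luminal marker list of 10 genes, the summed level was 4037 to 4514 CPM in mock, 9287 to 10391 CPM in EPR and 10810 to 11150 CPM in EPRSTOPE cells, nearly all of it from *Krt8*, *Krt18*, *Krt19* and *Cd24a*. The tested genes of this list that are not members did not move alike. *Cd24a* stood at 346, 352 and 517 CPM in mock, EPR and EPRSTOPE cells, and against mock was called higher in EPRSTOPE cells only. *Epcam* was not counted in the mock libraries and stood at 3.63 CPM in EPR cells (called) and 0.11 CPM in EPRSTOPE cells (not called). *Elf5* was called in neither comparison with mock, and *Esr1* was not counted in any library. Basal and myoepithelial markers (8 genes) summed to 17.2 to 22.1, 59.5 to 66.9 and 39.7 to 42.4 CPM in mock, EPR and EPRSTOPE cells, and their defining member *Trp63* was not counted. Most of the higher sum came from *Mylk*, a myosin light chain kinase of smooth muscle (7.84, 61.5 and 38.1 CPM), called higher in both comparisons with mock. *Acta2*, smooth muscle actin, was called lower in both (10.1, 1.17 and 0.80 CPM), and *Krt14*, the other of the 3 tested markers of this list, was called lower in EPR cells. Fibroblast markers (8 genes) summed to 0.93 to 2.20, 2.40 to 3.14 and 4.38 to 4.60 CPM. *Pdgfra*, the 1 tested gene among them, was called higher in both overexpressing conditions, with no count in mock, 1.19 CPM in EPR and 1.30 CPM in EPRSTOPE cells. The part of these markers in the results for the members was not tested. Muscle markers (7 genes) summed to at most 1.26 CPM, endothelial markers (3 genes) to at most 16.4 CPM and leukocyte markers (3 genes) to at most 3.83 CPM.

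Of the 53 members, 12 reached 1 CPM in at least 3 libraries and were tested among 15370 genes, namely *Krt7*, *Krt8*, *Krt10*, *Krt14*, *Krt16*, *Krt18*, *Krt19*, *Krt20*, *Krt76*, *Krt80*, *Vim* and *Nes*. A member could pass through the condition in which it is high. *Krt20* and *Krt76* passed through the EPR libraries alone, and *Krt14* and *Krt16* would not have passed without the EPRSTOPE libraries. For these genes the direction against the low conditions was in part set by the filter. The counts of called members and the medians below include them. The other 41 were not tested, and 20 of these had no count in any library. A gene was called where its log2 fold change was beyond 0.5 and the quasi-likelihood test of edgeR gave an adjusted p below 0.01. In EPR against mock cells 6 members were called higher and 3 lower, beside 15.2% and 12.9% of all genes tested. In EPRSTOPE against mock cells 4 were higher and 0 lower, beside 15.6% and 12.4%. *Krt80* was the 1 member lower there at an unadjusted p under 0.05, and DESeq2 and limma called 0 lower as well. In EPR against EPRSTOPE cells 5 were higher and 4 lower, beside 6.86% and 6.35%. Libraries of the conditions did not overlap for 10, 8 and 11 of the 12 members in these comparisons, and for 57.8%, 56.5% and 43% of all genes. The median log2 fold change of the 12 members was 1.18 in EPR against mock cells, beside -0.01 over all genes tested, and -0.16 in EPR against EPRSTOPE cells, beside 0.01. In EPRSTOPE against mock cells the median of the 12 members was 0.92, beside -0.04. This takes *Krt20*, which had no count on either side, as unchanged. Without *Krt20* the median of the 11 others was 1.37, the value of *Krt14*, which was not called. The comparisons with mock share the mock libraries. The plot of levels in the libraries and the plot of fold changes show the 12 members.

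**Figure D1:**
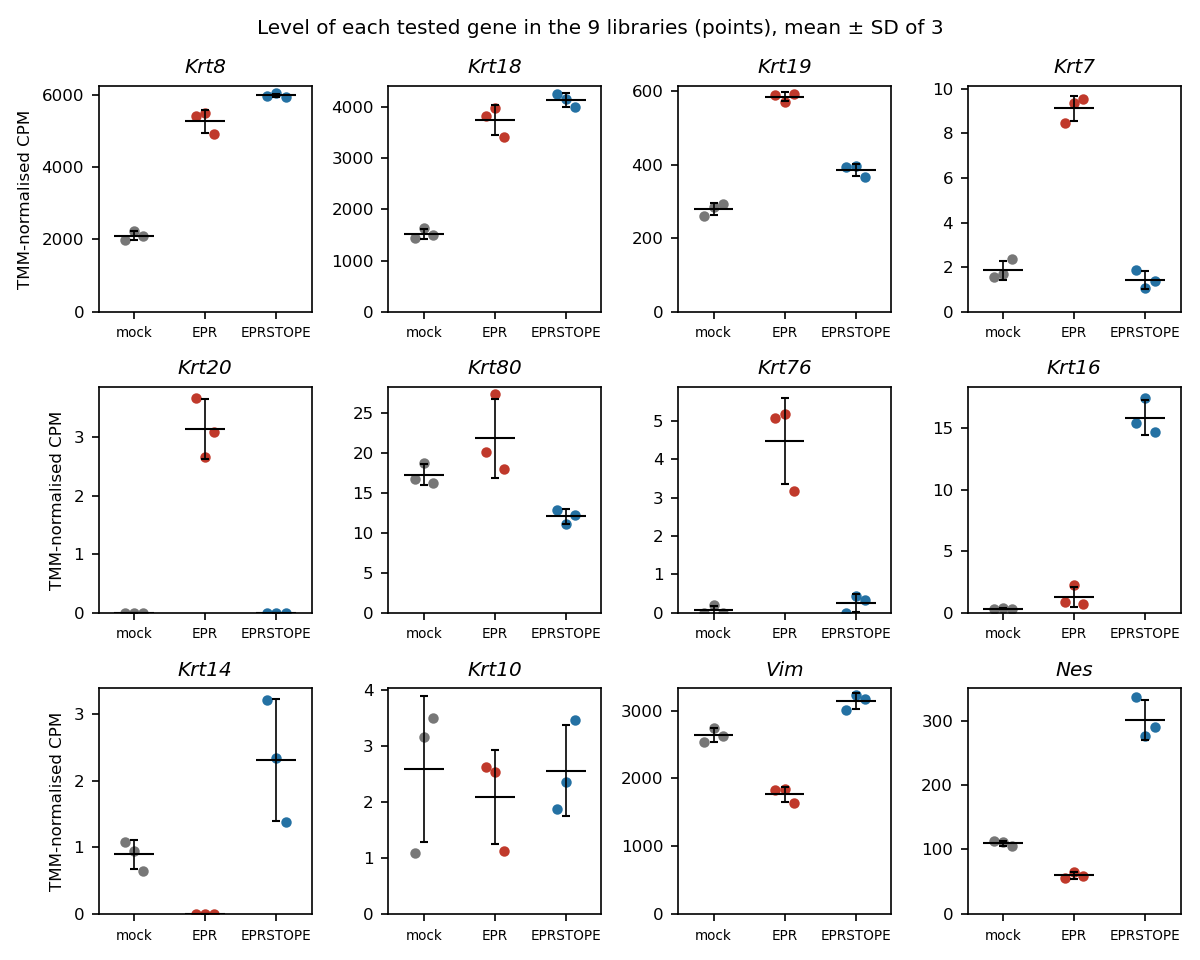
TMM-normalised CPM (y axis, linear from 0) of each tested gene in the 3 mock, 3 EPR and 3 EPRSTOPE libraries (points), with the mean as a bar and the SD of 3 libraries as error bars. *Krt8* and *Krt18* were higher in both overexpressing conditions, *Krt7*, *Krt20* and *Krt76* in EPR cells, *Krt16* and *Nes* in EPRSTOPE cells, and *Vim* was lowest in EPR cells (1641 to 1841 CPM).

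**Figure D2:**
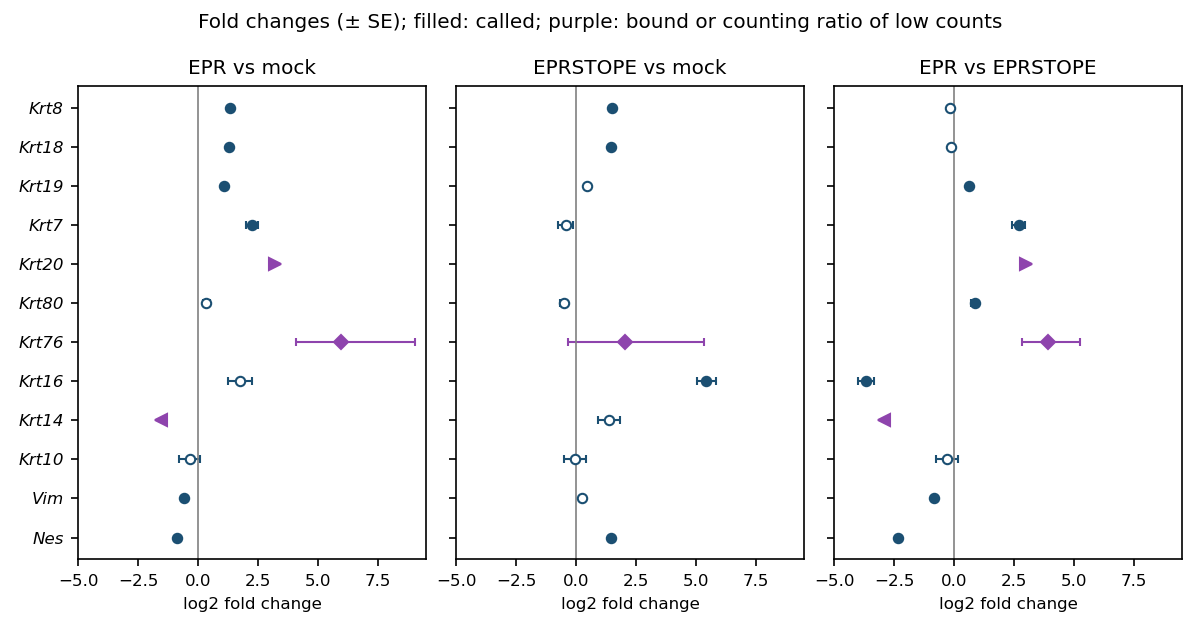
Log2 fold changes (x axis) of the 12 tested genes in the 3 comparisons. Circles are edgeR estimates with their standard error, filled where the gene was called. Triangles are lower bounds of the change for *Krt20* and *Krt14* where the other condition had no count, and diamonds are ratios of pooled *Krt76* counts with 95% intervals. *Krt8* and *Krt18* lie at 1.29 to 1.50 in both comparisons with mock and near 0 between EPR and EPRSTOPE.

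The type I and type II keratin genes lie in 2 clusters of the GRCm38 genome. The type I cluster on chr11:99279959-100269871 holds 24 members, of which 5 were tested (*Krt10*, *Krt14*, *Krt16*, *Krt19* and *Krt20*). The type II cluster on chr15:101347444-102004482 holds 24 members, of which 4 were tested (*Krt7*, *Krt8*, *Krt76* and *Krt80*). *Krt18* is a type I gene but lies beside *Krt8* on chromosome 15, with its start 23.7 kb from the *Krt8* start. *Vim* is on chromosome 2 and *Nes* on chromosome 3. The bases upstream of the Gencode start are shown for 4 genes, in the sense of the gene, from the RefSeq promoter table of GRCm38.p6: *Krt8* and *Krt18*, the most abundant pair, and *Krt20* and *Krt76*, which were counted almost only in EPR cells. Capitals mark a match to one of 4 motifs, each searched on both strands. The TATA box was searched as TATAAA and the GC box as GGGCGG. The AP-1 site was spelled TGANTCA, and the E-box was CAGGTG, which reads CACCTG on the opposite strand.
Krt8, chr15:102004483-102004592, minus strand: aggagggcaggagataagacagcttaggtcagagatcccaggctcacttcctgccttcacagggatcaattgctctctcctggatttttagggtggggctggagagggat
Krt18, chr15:102027966-102028179, plus strand: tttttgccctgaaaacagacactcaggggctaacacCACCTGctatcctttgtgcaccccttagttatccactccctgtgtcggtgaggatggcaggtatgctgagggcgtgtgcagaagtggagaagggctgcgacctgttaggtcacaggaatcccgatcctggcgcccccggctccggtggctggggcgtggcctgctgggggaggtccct
Krt20, chr11:99438154-99438403, minus strand: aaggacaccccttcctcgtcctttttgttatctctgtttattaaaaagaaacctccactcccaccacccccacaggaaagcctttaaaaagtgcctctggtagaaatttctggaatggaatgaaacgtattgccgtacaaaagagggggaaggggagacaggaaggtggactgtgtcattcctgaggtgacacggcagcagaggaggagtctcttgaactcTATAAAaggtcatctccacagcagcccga
Krt76, chr15:101892921-101893170, minus strand: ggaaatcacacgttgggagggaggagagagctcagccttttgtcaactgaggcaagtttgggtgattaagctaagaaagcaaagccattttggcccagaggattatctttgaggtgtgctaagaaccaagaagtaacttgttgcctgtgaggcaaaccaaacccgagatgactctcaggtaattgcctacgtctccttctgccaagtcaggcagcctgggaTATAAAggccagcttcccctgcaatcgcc
The 110 bases of *Krt8* held none of the 4 motifs. The full RefSeq entry of *Krt8* is 300 bases (chr15:102004293-102004592), the rest of which lies beyond the Gencode start and is not shown. It held 2 TATA boxes and 1 E-box, found in 13.6% and 20.2% of full entries. The 214 bases of *Krt18* held 1 E-box at base 37, a motif found in 15.2% of 32851 promoter windows cut to that length. *Krt20* and *Krt76* each held 1 TATA box at base 222 of 250, a motif found anywhere in 12.4% of windows of that length. *Krt16*, *Krt19* and *Krt80* had no entry in the promoter table.

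*Krt8* and *Krt18*, the pair of simple epithelia, were the most abundant keratins in all 3 conditions and rose together in both overexpressing conditions. *Krt8* (ENSMUSG00000049382.9) stood at 1989, 2232 and 2104 CPM in the mock libraries, at 5402, 5485 and 4902 CPM in EPR and at 5964, 6033 and 5933 CPM in EPRSTOPE. Every EPR and EPRSTOPE library was above every mock library. In bulk RNA, as here, more cells with a transcript and more transcript per cell cannot be told apart. The 3 EPR libraries were below the 3 EPRSTOPE libraries. The log2 fold change of *Krt8* was 1.32 ± 0.05 (SE) in EPR against mock cells (adjusted p = 1.8e-09 in the edgeR fit, as for all adjusted p-values here). Against mock, EPRSTOPE cells gave 1.50 ± 0.05 (adjusted p = 5.1e-10). Between EPR and EPRSTOPE cells it was -0.18 ± 0.05 (adjusted p = 0.018), which missed the threshold. *Krt18* (ENSMUSG00000023043.6), the type I partner, stood at 1440, 1638 and 1501 CPM in mock, at 3825, 3989 and 3423 CPM in EPR and at 4258, 4155 and 3999 CPM in EPRSTOPE cells. Its log2 fold change was 1.29 ± 0.06 in EPR (adjusted p = 1e-08) and 1.44 ± 0.06 in EPRSTOPE cells (adjusted p = 3.7e-09). Between EPR and EPRSTOPE cells *Krt18* differed by -0.14 ± 0.06 (adjusted p = 0.1), without overlap of the libraries but short of the threshold.

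Per length, both partners were at nearly the same level. *Krt8* stood at 1102 TPM (transcripts per 1e+06) in mock and 2689 TPM in EPR cells, and *Krt18* at 1134 and 2581 TPM. The ratio of *Krt8* to *Krt18* TPM was 0.972 ± 0.015 for mock, 1.04 ± 0.01 for EPR and 1.06 ± 0.00 for EPRSTOPE cells (SD of 3 libraries). *Krt8* shares 36% of its 31-base words with other transcripts, mainly the pseudogene *Krt8-ps*, which had 86 to 218 estimated counts per library beside 12807 to 61897 for *Krt8*. How Kallisto divided the shared reads was not tested.

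Genes of chromosome 15 were higher as a whole. The chromosome had 517 tested genes that are not members, with a median log2 fold change of 0.49 in EPR and 0.52 in EPRSTOPE against mock cells. On this chromosome 41.2% and 44.1% of them were called higher, beside 15.2% and 15.6% of all genes tested, and the median in EPR against EPRSTOPE cells was -0.02. For chromosomes 2, 3 and 11, which hold the other tested members, the medians against mock lay between -0.11 and 0.03. Within 1000 kb of the *Krt8* start, 29 other genes had more than 3 counts in every condition. Their median was 0.51 in EPR and 0.67 in EPRSTOPE cells, and 4 of the 29 had a larger fold change than *Krt8* and *Krt18* in either comparison. The part of this shift of chromosome 15 in the results for *Krt8*, *Krt18*, *Krt7*, *Krt76* and *Krt80* was not tested.

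**Figure D3:**
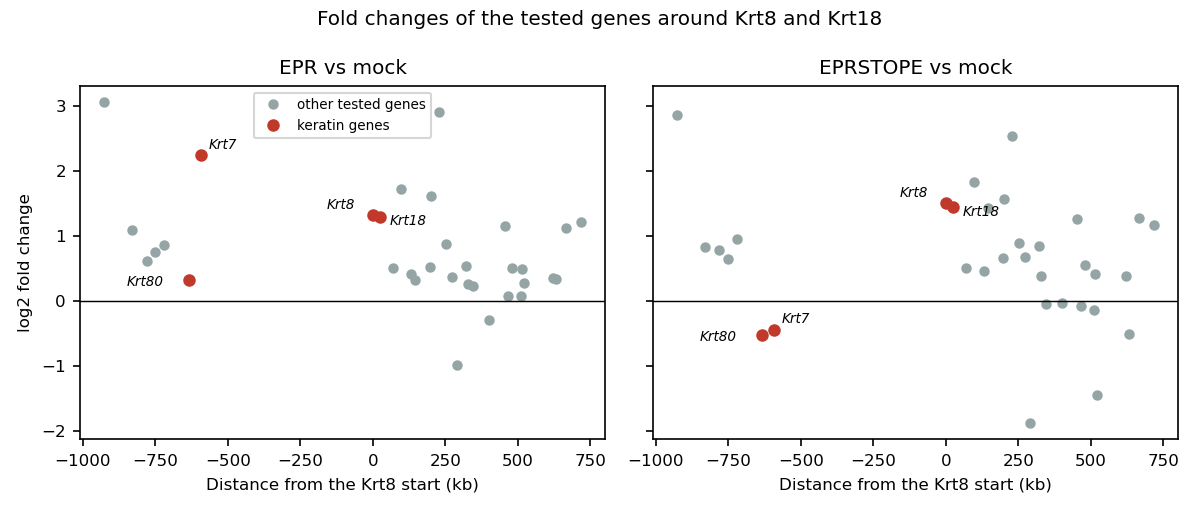
Log2 fold change against mock (y axis) of tested genes within 1000 kb of the *Krt8* start (x axis, distance in kb along chromosome 15), for EPR (left) and EPRSTOPE (right). Each point is a gene with more than 3 counts in every condition, keratins in red and the 29 others in grey, whose medians were 0.51 and 0.67. *Krt7* and *Krt80*, some 600 kb from *Krt8*, lie below 0 in EPRSTOPE cells while the grey points beside them lie above 0.

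*Krt19*, a type I keratin without a tail domain that is made in luminal and progenitor cells, was graded over the conditions. It stood at 261, 285 and 293 CPM in mock, at 590, 570 and 593 CPM in EPR and at 395, 395 and 366 CPM in EPRSTOPE cells. The 3 conditions did not overlap, and EPRSTOPE lay between the others. The log2 fold change of *Krt19* was 1.06 ± 0.06 in EPR against mock cells (adjusted p = 2.9e-08) and 0.60 ± 0.06 in EPR against EPRSTOPE cells (adjusted p = 1e-05). In EPRSTOPE against mock cells it was 0.46 ± 0.06 (adjusted p = 3.5e-05), under the fold limit of 0.5. With protein-coding models alone it was 0.54 and was called (adjusted p = 0.00039), and with counts recomputed from TPM and transcript length (length-scaled counts) the difference between EPR and EPRSTOPE cells was 0.52 and was not (adjusted p = 0.011). The share of *Krt19* in type I keratin TPM was 16.3% ± 1.5 with EPR, 10.8% ± 1.0 with EPRSTOPE and 21.2% ± 3.1 in mock cells (SD of 3 libraries). On protein-coding models alone this share was 8.20% ± 0.66 for mock, 8.26% ± 0.79 for EPR and 4.93% ± 0.46 for EPRSTOPE cells. Its protein-coding transcript model rose in EPR against mock cells (1.30 ± 0.14, adjusted p = 0.00078), and so did its short model without a coding sequence (0.90 ± 0.10, adjusted p = 0.0014), in an edgeR fit over 45412 transcripts that called 4.07% of them.

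Among the less abundant keratins of simple epithelia, *Krt7* and *Krt20* were higher in EPR cells than in both other conditions. *Krt7* (ENSMUSG00000023039.16), a type II keratin of ducts and glands, stood at 1.55, 1.69 and 2.36 CPM in mock, at 8.47, 9.34 and 9.53 CPM in EPR and at 1.86, 1.07 and 1.38 CPM in EPRSTOPE cells. The EPR libraries lay above all others, and the mock and EPRSTOPE libraries overlapped. The log2 fold change of *Krt7* was 2.25 ± 0.26 in EPR against mock (adjusted p = 1.6e-05) and 2.69 ± 0.27 in EPR against EPRSTOPE cells (adjusted p = 1.7e-05). EPRSTOPE against mock cells gave -0.44 ± 0.31 (adjusted p = 0.26). Within 500 kb of *Krt7*, 7 other genes that are not members were tested, with a median of 1.09 in EPR and 0.95 in EPRSTOPE cells. Of these 6 and 5 were called higher, beside 15.2% and 15.6% of all genes tested.

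*Krt20* (ENSMUSG00000035775.2), a type I keratin best known from intestinal epithelium and the urothelial surface, was counted 42, 21 and 33 times in the EPR libraries and not once in the 6 others. Its level in EPR cells was 3.13 ± 0.51 CPM (SD, n = 3). This is at least 9.16-fold higher than the level of 3 counts per library in mock and at least 8.01-fold higher than that level in EPRSTOPE cells. *Krt20* shares none of its 31-base words with another gene. The adjusted p was 0.0001 against mock and 0.00032 against EPRSTOPE cells. *Krt20* passed the filter through the EPR libraries alone, so its direction was in part set by the filter. These p-values are no separate support for that direction. When any 1 of the 3 EPR libraries was left out, *Krt20* passed 1 CPM in only 2 libraries and was not tested. *Krt23*, the remaining listed type I keratin of simple epithelia, had 0 to 3 counts per library and was not tested.

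*Krt76* and *Krt80* are type II keratins that were listed here with those of stratified epithelia, *Krt76* being known from the palate and other oral surfaces. *Krt76* (ENSMUSG00000075402.1) had 58, 41 and 34 counts in EPR, 0, 2 and 0 in mock and 0, 4 and 3 in EPRSTOPE libraries. Pooled over libraries and scaled by their size, EPR cells had 62.3 times the mock level (95% exact interval 16.9 to 520.2) and 15.1 times the EPRSTOPE level (7.14 to 38.4). These intervals cover counting error only. EPRSTOPE against mock cells gave a ratio of 4.12 (0.784 to 40.6), which 2 counts in mock leave undetermined. Both of these counts were in mock library 204, and without it the mock side held no count. *Krt76* was called in EPR against mock (adjusted p = 5.8e-05) and in EPR against EPRSTOPE cells (adjusted p = 0.00063), and like *Krt20* it was not tested when any 1 EPR library was left out. It too passed the filter through the EPR libraries alone, so its direction was in part set by the filter. *Krt80* (ENSMUSG00000037185.8), found broadly in epithelia, stood at 16.8, 18.8 and 16.3 CPM in mock, at 20.1, 27.4 and 18.0 CPM in EPR and at 12.9, 11.1 and 12.2 CPM in EPRSTOPE cells. EPRSTOPE libraries were the lowest, and mock and EPR libraries overlapped. Of its comparisons, EPR against EPRSTOPE cells was called (0.85 ± 0.16, adjusted p = 0.0015), while EPR against mock (0.33 ± 0.15, adjusted p = 0.092) and EPRSTOPE against mock (-0.52 ± 0.16, adjusted p = 0.017) were not. The first was not called with length-scaled counts (adjusted p = 0.022), and the last was called without EPR library 207 (adjusted p = 0.0041).

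Of the type I keratins of stratified and basal epithelia, 3 were tested, and 2 of them, *Krt16* and *Krt14*, were lower in EPR than in EPRSTOPE cells. *Krt16* (ENSMUSG00000053797.10), a keratin of stressed and wounded epidermis, stood at 0.31, 0.42 and 0.33 CPM in mock, at 0.87, 2.27 and 0.75 CPM in EPR and at 15.4, 17.5 and 14.7 CPM in EPRSTOPE cells. The 3 EPRSTOPE libraries were far above the rest, and the EPR libraries lay just above mock. Without the EPRSTOPE libraries *Krt16* would not have passed the filter, so their higher level was in part set by the filter. Its log2 fold change was 5.43 ± 0.39 in EPRSTOPE against mock (adjusted p = 2.9e-07) and -3.68 ± 0.33 in EPR against EPRSTOPE cells (adjusted p = 5.4e-06). EPR against mock cells gave 1.76 ± 0.50 (adjusted p = 0.011), which missed the threshold, on counts of 2 to 4 in mock and 8 to 18 in EPR libraries. DESeq2 called it (adjusted p = 0.0049), as did edgeR with no filter (adjusted p = 0.0012) and without EPR library 206 (adjusted p = 0.01, just inside the threshold) or 208 (adjusted p = 0.0056). Without EPR library 207, the highest of the 3, it was 1.17 (adjusted p = 0.066), and limma-voom gave 1.47 (adjusted p = 0.056). The difference between EPR and EPRSTOPE cells was -4.27 without library 207 and was still called (adjusted p = 1.9e-06).

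*Krt14* (ENSMUSG00000045545.8), the type I keratin of basal and myoepithelial cells, was counted 7, 9 and 8 times in mock and 19, 22 and 12 times in EPRSTOPE libraries, and not in any EPR library. EPR cells were at least 2.92-fold lower than mock and at least 7.54-fold lower than EPRSTOPE cells, taking 3 counts per library as the limit in EPR. Both differences were called (adjusted p = 0.00075 and 0.0002), the first not with protein-coding models alone (adjusted p = 0.02). Without the EPRSTOPE libraries *Krt14* would not have passed the filter, so the direction against EPRSTOPE cells was in part set by the filter. For EPRSTOPE against mock cells *Krt14* gave 1.37 ± 0.48 (adjusted p = 0.037), which missed the threshold. Its type II partner *Krt5* had 0 to 4 counts per library and was not tested. *Krt16* shares 51.9% and *Krt14* 28.2% of their 31-base words with other transcripts, in part with each other, and the pseudogene *Gm11597*, the main overlap of *Krt16*, had no count. *Krt14* counts as low as these, next to 91 to 164 counts of *Krt16* in EPRSTOPE cells, are uncertain because the quantification could split reads between the 2 genes. *Krt10*, a keratin of differentiated epidermis, was at 2.58 ± 1.31 CPM with the empty vector, 2.09 ± 0.84 CPM with EPR and 2.55 ± 0.81 CPM with EPRSTOPE (SD of 3 libraries). Its libraries overlapped in all 3 comparisons, with adjusted p of 0.55 in EPR against mock, 0.94 in EPRSTOPE against mock and 0.66 in EPR against EPRSTOPE cells.

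Of the 41 members that were not tested, 21 had at least 1 count. Those that reached 0.3 CPM in a library were *Des*, *Krt5*, *Krt13*, *Krt15*, *Krt26*, *Krt36*, *Krt78*, *Krt79*, *Krt87* and *Krt222*, and the highest of these was *Krt79* at 1.48 CPM. *Krt79*, a type II keratin of hair follicle and gland ducts, had 17, 8 and 4 counts in EPR, 6, 7 and 6 in EPRSTOPE and 0 in all mock libraries. *Krt13*, a type I keratin of oral and oesophageal epithelium, had 5 to 6 counts in EPR, 0 to 7 in EPRSTOPE and 0 to 2 in mock libraries. *Krt36*, a hair keratin, had 8 and 3 counts in mock libraries 203 and 204 and 0 in the 7 others. *Des* had 0 counts in mock, 1 to 4 in EPR and 0 to 2 in EPRSTOPE libraries, which is at the limit of detection. None of the listed keratins of the hair follicle sheath (9 genes) or the hair shaft (13 genes in the files) was tested.

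*Vim* (ENSMUSG00000026728.9) was lower in EPR cells than in both other conditions. It stood at 2535, 2744 and 2623 CPM in mock, at 1821, 1841 and 1641 CPM in EPR and at 3012, 3229 and 3174 CPM in EPRSTOPE cells. By CPM none of the 3 conditions overlapped. Per length, over all transcript models, *Vim* stood at 3324, 3236 and 2795 TPM in mock cells. It stood at 1816, 1658 and 1339 TPM in EPR and at 2320, 2976 and 3264 TPM in EPRSTOPE cells. On this scale EPR was lowest, while mock and EPRSTOPE overlapped. Most of this TPM came from models with a retained intron. On protein-coding models alone *Vim* stood at 617, 903 and 746 TPM in mock and at 565, 692 and 530 TPM in EPR cells. These mock and EPR values overlapped. EPRSTOPE cells then stood at 1089, 1267 and 752 TPM, above every EPR library but overlapping mock. *Vim* fell in EPR against mock cells (-0.58 ± 0.05, adjusted p = 2.5e-06) and was lower in EPR than in EPRSTOPE cells (-0.83 ± 0.05, adjusted p = 3.9e-07). In EPRSTOPE against mock cells the log2 fold change was 0.25 ± 0.05 (adjusted p = 0.0017), under the fold limit. It was 0.13 with library totals only (adjusted p = 0.033) and 0.04 with length-scaled counts (adjusted p = 0.84). With protein-coding models alone the change in EPR against mock cells was -0.35 (adjusted p = 0.0076) and was not called. Within 500 kb of *Vim* 8 other genes were tested, with a median of -0.42 in EPR and -0.46 in EPRSTOPE against mock cells.

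The transcript models of *Vim* include 2 that encode the protein and carry most counts, Vim-201 and Vim-206, and 2 short models with a retained intron, Vim-203 (535 nt) and Vim-204 (926 nt). The retained-intron model Vim-203 held 23.7% ± 1.3 of *Vim* counts with the empty vector, 19.5% ± 1.2 with EPR and 19.5% ± 3.8 with EPRSTOPE (SD of 3 libraries). Within EPRSTOPE cells Vim-204 ranged from 530.4 counts in library 209 to 5023 counts in library 211. In the fit over transcripts Vim-203 gave -0.80 ± 0.14 in EPR against mock cells (adjusted p = 0.01), just short of the threshold. Vim-201 and Vim-206 gave -0.21 ± 0.14 and -0.31 ± 0.14 (adjusted p = 0.48 and 0.26). edgeR called 0 *Vim* transcripts, while limma-voom called Vim-203 in this comparison (adjusted p = 0.0075) and Vim-205 in EPR against EPRSTOPE cells (adjusted p = 0.0075).

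*Nes* (ENSMUSG00000004891.16) moved in opposite directions in the 2 overexpressing conditions. It stood at 112.6, 110.9 and 105.4 CPM in mock, at 55.6, 65.8 and 58.1 CPM in EPR and at 336, 276 and 290.0 CPM in EPRSTOPE cells. The 3 conditions did not overlap, with EPR lowest and EPRSTOPE highest. *Nes* fell in EPR against mock cells (-0.87 ± 0.09, adjusted p = 4.6e-06) and rose in EPRSTOPE against mock cells (1.46 ± 0.09, adjusted p = 4.2e-08). EPR against EPRSTOPE cells gave -2.33 ± 0.09 (adjusted p = 6.9e-09), a level 5.03-fold lower. With length-scaled counts the fall in EPR against mock cells was -0.64 and was not called (adjusted p = 0.012). Of 25 other tested genes within 500 kb of *Nes*, 3 were called higher and 10 lower against mock in either condition. Their medians were -0.33 in EPR and -0.19 in EPRSTOPE cells. Over all genes tested, 15.2% were called higher and 12.9% lower in EPR, and 15.6% and 12.4% in EPRSTOPE cells. *Nes* shares no 31-base word with another gene. The 5 neural markers, *Nes* among them, summed to 134 to 143 CPM in mock, 57.3 to 66.3 CPM in EPR and 280.3 to 342.7 CPM in EPRSTOPE libraries. Most of each sum was *Nes* itself. *Sox2* was counted in the mock libraries alone (36, 46 and 55 counts) and *Map2* stood at 24.5 CPM in mock, 1.38 CPM in EPR and 5.54 CPM in EPRSTOPE cells. *Sox2* and *Map2* were called lower than mock in both overexpressing conditions, unlike *Nes* in EPRSTOPE cells. The part of these neighbours and markers in the results for *Vim* and *Nes* was not tested.

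Of the *Nes* transcript models, 1 was called higher in EPRSTOPE and another lower in EPR cells. Nes-201 (6126 nt) and Nes-203 (5958 nt) are both protein coding, and differ by 36 bases at the 5′ end and by 132 bases within exon 4 of Nes-201 that Nes-203 treats as an intron, at chr3:87976581-87976712 on the plus strand of GRCm38. This segment is 44 codons of coding sequence with no remainder, and is shown because it is the main stretch that tells the models apart, with its first and last 2 bases, those of a GT-AG intron, in capitals.
Nes, chr3:87976581-87976712, plus strand: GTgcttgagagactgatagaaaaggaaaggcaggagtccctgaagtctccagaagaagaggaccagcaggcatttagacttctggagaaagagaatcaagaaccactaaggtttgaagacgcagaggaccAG
Nes-201 had 27.6, 191 and 185 estimated counts in mock, 224, 354 and 326 in EPR and 1131, 1865 and 1816 in EPRSTOPE libraries. Nes-203 had 681, 847 and 1091 counts in mock, 404.0, 167 and 287 in EPR and 839, 693 and 688 in EPRSTOPE libraries. Nes-201 was thus highest in EPRSTOPE and Nes-203 lowest in EPR cells. In the fit over transcripts, which called 4.07%, 4.64% and 0.854% of transcripts in the 3 comparisons, Nes-201 rose in EPRSTOPE against mock cells (3.92 ± 0.56, adjusted p = 0.0034). Nes-203 fell in EPR against mock cells (-1.71 ± 0.28, adjusted p = 0.0081). Nes-201 in EPR against mock (1.28 ± 0.51, adjusted p = 0.2) and Nes-203 in EPRSTOPE against mock cells (0.09 ± 0.27, adjusted p = 0.93) did not pass. Between EPR and EPRSTOPE cells neither model was called by edgeR (adjusted p = 0.045 for Nes-201 and 0.018 for Nes-203), though limma-voom called Nes-201 (-2.78, adjusted p = 0.0018). The share of Nes-201 in *Nes* counts was 12.1% ± 7.4 with the empty vector, 51.8% ± 16.4 with EPR and 67.1% ± 8.8 with EPRSTOPE (SD of 3 libraries). These shares rest on Kallisto's assignment of reads that mostly fit both models, and no read across the segment was examined here.

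**Figure D4:**
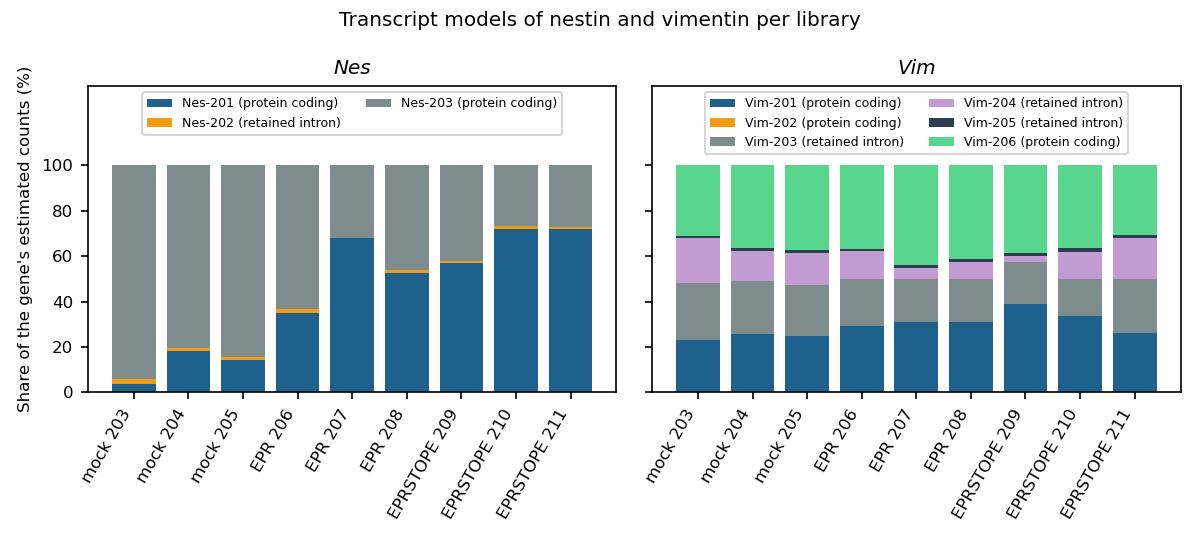
Share of each transcript model in the estimated counts of *Nes* (left) and *Vim* (right), in percent, for each of the 9 libraries. Nes-201 took 3.80% to 18.2% of *Nes* counts in the mock libraries, 35.1% to 67.9% in EPR and 57.0% to 72.2% in EPRSTOPE, while Vim-204 varied between libraries of the same condition.

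Keratins took a larger share of the filament transcripts in both overexpressing conditions than in mock cells, with the largest share in EPR cells and no overlap of the conditions. Keratins made up 44.9% ± 3.4 of the summed TPM of the members with the empty vector, 78.3% ± 1.5 with EPR and 69.0% ± 5.2 with EPRSTOPE (SD of 3 libraries). The ratio of keratin to *Vim* TPM went from 0.82 ± 0.11 in mock to 3.63 ± 0.30 in EPR cells, and stood at 2.32 ± 0.52 in EPRSTOPE cells. *Krt8* made up 99.1%, 99.4% and 99.8% of type II keratin TPM, so these shares describe *Krt8*, *Krt18*, *Krt19* and *Vim* rather than the rarer members. Type II to type I keratin TPM was 0.770 ± 0.030 for mock, 0.876 ± 0.008 for EPR and 0.946 ± 0.013 for EPRSTOPE cells. On protein-coding models alone the keratin share was 75.4%, 90.2% and 85.5%, in the same order of conditions but with mock cells much higher, and the ratio of type II to type I was 0.897, 0.960 and 1.01. These are sums over members and were given no test.

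**Figure D5:**
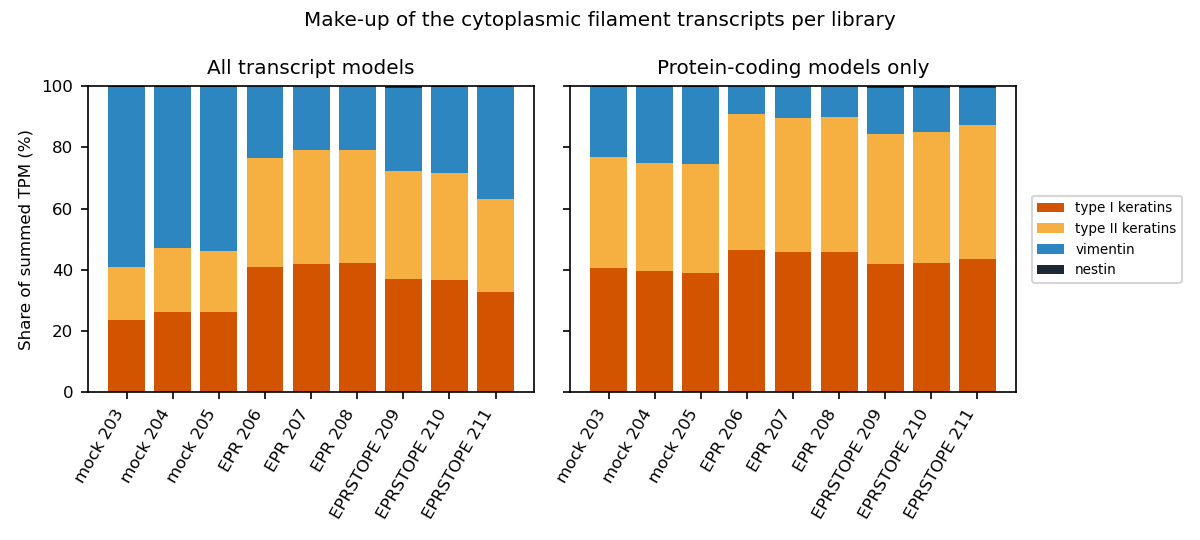
Share of type I keratins, type II keratins, vimentin and nestin in their summed TPM (percent, stacked bars) in each of the 9 libraries, over all transcript models (left) and protein-coding models (right). Keratins took 41% to 47.3% in mock, 76.6% to 79.1% in EPR and 63.1% to 72.4% in EPRSTOPE libraries on the left, and 74.5% to 90.8% over all libraries on the right.

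Of 18 other intermediate filament genes, 8 were tested. In EPR against mock cells 2 were higher and 3 lower, in EPRSTOPE against mock cells 3 were higher and 1 lower, and in EPR against EPRSTOPE cells 1 was higher and 1 lower. Over all genes tested the shares were 15.2% and 12.9%, 15.6% and 12.4%, and 6.86% and 6.35%. *Krt6a*, the usual type II partner of *Krt16* and not a member by its symbol, was counted 116, 92 and 101 times in EPR, 43, 77 and 59 times in EPRSTOPE and not at all in mock libraries. Its level was 10.4 CPM in EPR and 7.43 CPM in EPRSTOPE cells, a difference that was not called (adjusted p = 0.092). The nuclear lamins were lower in EPR cells, *Lmnb1* falling from 115.5 to 54.4 CPM (-1.08 ± 0.06, adjusted p = 4.4e-08), *Lmna* from 1056 to 707 CPM (-0.58 ± 0.05, adjusted p = 3.3e-06) and *Lmnb2* from 57.4 to 38.9 CPM (-0.56 ± 0.10, adjusted p = 0.00069). In EPRSTOPE cells *Lmnb1* fell as well, to 64.1 CPM (-0.85 ± 0.06, adjusted p = 3.1e-07). *Lmna* (-0.11 ± 0.05, adjusted p = 0.12) and *Lmnb2* (-0.05 ± 0.10, adjusted p = 0.75) were not called in EPRSTOPE against mock cells.

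Plakins and plakophilins link filaments to desmosomes and other junctions. Of 11 listed genes 10 were tested, with 4 higher and 0 lower in EPR, 3 higher and 0 lower in EPRSTOPE against mock cells, and 2 higher and 1 lower in EPR against EPRSTOPE cells. The shares over all genes tested were 15.2% and 12.9%, 15.6% and 12.4%, and 6.86% and 6.35%. At an unadjusted p under 0.05, 0 were lower in EPR and 2 in EPRSTOPE against mock cells. *Dsp*, desmoplakin, which ties keratin to desmosomes, rose from 161 CPM in mock to 480 CPM in EPR (1.57 ± 0.06, adjusted p = 1.1e-09) and 380 CPM in EPRSTOPE cells (1.24 ± 0.06, adjusted p = 6.7e-09). *Pkp1*, a desmosomal plaque protein, rose from 9.82 to 19.1 CPM in EPR and 40.1 CPM in EPRSTOPE cells. *Plec*, plectin, which cross-links keratin and vimentin filaments, rose from 1732 to 3287 CPM in EPRSTOPE cells (0.92 ± 0.07, adjusted p = 6.1e-07). In EPR cells it stood at 2376 CPM (0.46 ± 0.07, adjusted p = 0.00024), under the fold limit. *Ppl*, periplakin, rose from 261 to 412 CPM in EPR cells (0.66 ± 0.06, adjusted p = 4.3e-06). In EPRSTOPE cells *Ppl* stood at 294 CPM and was not called (0.17 ± 0.06, adjusted p = 0.043). *Plec* lies on chromosome 15, where genes were higher as a whole.

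The cornified envelope is the protein shell of differentiated keratinocytes. Of its 13 listed genes 6 were tested, with 5 higher and 0 lower in EPR against mock cells, 4 higher and 1 lower in EPRSTOPE against mock cells, and 1 higher and 3 lower in EPR against EPRSTOPE cells. For this list and the next, the shares over all genes tested were 15.2% and 12.9%, 15.6% and 12.4%, and 6.86% and 6.35%. At an unadjusted p under 0.05, 1 was lower in EPR against mock cells. *Sprr1a* stood at 80.3 CPM in mock, 289 CPM in EPR and 33.8 CPM in EPRSTOPE cells, with a log2 fold change of 3.08 ± 0.13 in EPR against EPRSTOPE cells (adjusted p = 1.3e-08). *Sprr2h* (0.19, 22.9 and 54.1 CPM), *Sprr1b* (10.7, 31.7 and 67.7 CPM) and *Sbsn* (1.94, 8.83 and 22.1 CPM) were highest in EPRSTOPE cells, as *Krt16* was. Among 9 genes that modify or regulate keratins 6 were tested, with 3 higher and 0 lower against mock in both overexpressing conditions and 0 higher and 0 lower between them in edgeR. At an unadjusted p under 0.05, 1 was lower in each condition against mock, and 2 were higher and 2 lower in EPR against EPRSTOPE cells. The 3 higher genes were *Fam83h*, which regulates keratin filaments (42.2, 90.3 and 74.8 CPM), and the epithelial transcription factors *Klf4* (42.4, 77.2 and 106.3 CPM) and *Klf5* (16.1, 25.5 and 23.9 CPM). *Fam83h*, like *Plec*, lies on chromosome 15.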

How the data were processed

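The data are RNA-Seq of NMuMG cells, 9 libraries with conditions from the genotype labels. Per the labels, TruSeq stranded total RNA libraries were sequenced as read pairs, and total RNA also holds unspliced transcripts. The authors quantified transcripts with Kallisto 0.43.1 on Gencode vM15 (GRCm38.p5) and deposited, per transcript, an estimated count, not normalised, and a TPM value, which the authors scaled by effective length to 1e+06 per library. Estimated counts were summed per gene symbol and rounded. The fit held genes that reached 1 CPM in 3 or more libraries and used edgeR 4.0.16 in R 4.3.3 (TMM, quasi-likelihood, 1 factor of 3 levels over all 9 libraries), with Benjamini-Hochberg adjustment over all genes tested and the study's cut-offs (adjusted p under 0.01, log2 fold change beyond 0.5). Errors are SE of fold changes or SD of levels. Scripts were tested on simulated counts. TPM was used to compare levels between genes. Levels below 3 counts (0.244 to 0.508 CPM) cannot be resolved.

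The members and lists were chosen with earlier results of these data known. Every tested member is named. Members not tested are named where they reached 0.3 CPM, and other lists give at most 4 genes, those with the largest fold change among called genes of at least 10 CPM. The genes *Epcam*, *Elf5*, *Esr1*, *Trp63*, *Sox2*, *Map2*, *Cd24a*, *Mylk*, *Acta2* and *Pdgfra* are named from marker lists. DESeq2 1.42.0, limma 3.58.1, other scalings, filters, thresholds and transcript sets, and leaving out each library were tried as alternatives, and the fit over transcripts was added after seeing the data. Positions and shared 31-base words came from Gencode M21 on GRCm38, and promoters from RefSeq (GRCm38.p6). Libraries of a condition differed by more than counting noise (chi-square of 4.63 or more per degree of freedom), so none was counted as a duplicate.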

Additional observations from a re-analysis of the deposited data

Results flagged for a closer look

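*Nes* moved in opposite directions against the same mock libraries, with a log2 fold change of -0.87 in EPR and 1.46 in EPRSTOPE cells, and the difference between EPR and EPRSTOPE cells was itself tested (-2.33, adjusted p = 6.9e-09 in the edgeR fit). All 3 EPR libraries were below and all 3 EPRSTOPE libraries above the 3 mock libraries.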

How the results depend on the processing

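Fold changes of a member that failed the filter of an alternative, such as *Krt20* and *Krt76* without any single EPR library, were not counted here. Among the rest, over the alternatives tried, 602 fold changes stayed on their side of the threshold without a change of sign, 14 passed it newly and 5 lost it. Another 5, all of *Krt10* and never called, changed sign when 1 library was left out. These were EPRSTOPE against mock cells (-0.05), which gave 0.09, 0.22, 0.11 and 0.02 without mock replicates 204 and 205 and EPRSTOPE replicates 209 and 210, and EPR against EPRSTOPE cells (-0.31), which gave 0.01 without EPR replicate 208. No called value changed sign. The number of members called lower in EPR against mock cells dropped from 3 to 1 with protein-coding models alone, where *Vim* (-0.35, adjusted p = 0.0076) and *Krt14* (-4.84, adjusted p = 0.02) were lost, and to 1 with a log2 fold change beyond 1. In EPRSTOPE against mock cells the number higher was 7 at an adjusted p under 0.05 without a fold limit, and the number lower, 0 in the main fit, was 1 with that threshold, with library totals only, with no filter, with only the conditions compared and without EPR replicate 207. In EPR against EPRSTOPE cells the number higher dropped from 5 to 3 when every library had to hold 10 counts or more, with length-scaled counts (where *Krt19* and *Krt80* had adjusted p = 0.011 and 0.022), with a log2 fold change beyond 1 and without any single EPR library, since *Krt20* and *Krt76* then pass 1 CPM in only 2 libraries. The number lower dropped from 4 to 2 with that minimum of 10 counts. The fall of *Nes* in EPR cells was -0.64 with length-scaled counts (adjusted p = 0.012). With limma-voom on transcripts, Nes-201 was also lower in EPR than in EPRSTOPE cells (-2.78, adjusted p = 0.0018), and Vim-203 (-0.80, adjusted p = 0.0075) fell in EPR against mock cells. The causes of these changes were not tested unless stated.

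In mock, EPR and EPRSTOPE cells, the keratin share was 58.9%, 84.1% and 75.4% by estimated counts and 75.4%, 90.2% and 85.5% on protein-coding TPM. Type II to type I was 1.18, 1.22 and 1.32 by counts and 0.897, 0.960 and 1.01 on protein-coding TPM. Keratin to *Vim* was 1.49, 5.45 and 3.36 by counts and 3.13, 9.31 and 6.20 on protein-coding TPM. Leaving out each library gave 4 to 6 members higher and 3 to 3 lower in EPR against mock, 4 to 4 higher and 0 to 1 lower in EPRSTOPE against mock, and 3 to 5 higher and 4 to 4 lower in EPR against EPRSTOPE cells. The keratin share then ran from 43.7% to 46.8% in mock, 77.8% to 79.1% in EPR and 67.3% to 72% in EPRSTOPE cells, type II to type I from 0.755 to 0.785, 0.872 to 0.880 and 0.939 to 0.952, and keratin to *Vim* from 0.782 to 0.884, 3.54 to 3.81 and 2.14 to 2.62. No paired analysis was possible because the library numbers 203 to 211 are not shared between conditions. Depth limits the comparisons with mock for *Krt14*, *Krt16*, *Krt20* and *Krt76*, which had 0 to 9 counts per mock library.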
